A study of Mus musculus with 4 samples.

Results

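*Lyst*, *Lrba*, *Nbeal1*, *Nbeal2*, *Wdfy3* and *Wdfy4*, which encode large BEACH domain proteins, and *Vps13a*, *Vps13b*, *Vps13c* and *Vps13d*, which encode the VPS13 proteins, were examined in CD69+DP thymocytes. These 10 of the 24421 genes listed were chosen by family name and long transcripts, with the measured differences between Foxa1/2cKO and control in the same FPKM values already known, and *Lyst* was named by the study on these samples. Their differences between the groups are therefore given as a description of these 4 samples and not as independent evidence. Levels are FPKM (fragments per kilobase, scaled to a total for each sample) and can be compared between genes because they are per length.

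RNA was sequenced from CD69+CD4+CD8+ double-positive (DP) thymocytes, which carry CD69 because they have received a TCR signal, sorted by flow cytometry from adult thymus of mice 6 weeks old on the C57BL/6 background. The control group, n = 2, was Foxa1fl/flFoxa2fl/fl without CD4Cre, and the Foxa1/2cKO group, n = 2, was Foxa1fl/flFoxa2fl/fl with CD4Cre, so both groups carry the floxed alleles and the transgene itself cannot be told apart from the loss of Foxa1 and Foxa2. CD4Cre is driven by *Cd4* control elements, which become active as thymocytes reach the DP stage and stay active in T cells. Samples were sorted separately from different mice, and the methods do not make plain whether a sample holds cells of more than 1 mouse.

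BEACH proteins share a BEACH domain that sits between a PH-like domain and WD repeats near the C terminus, and they act as scaffolds for the sorting, fission and fusion of endosomes, lysosomes and granules. VPS13 proteins form long grooves that bridge neighbouring organelles and carry lipids between their membranes. Loss of several members causes human disease of immune cells, platelets or neurons, and in lymphocytes the best known are LYST, needed for normal lytic granules, and LRBA, which keeps CTLA-4 from degradation in lysosomes.

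The samples held 10395989 to 14481512 recovered reads. *Foxa1* and *Foxa2* were listed at 0 in all 4 samples and do not check the genotypes, while 7 thymocyte markers (*Cd3e*, *Cd4*, *Cd8a*, *Cd8b1*, *Cd69*, *Rag1* and *Themis*) were at an FPKM of 76.6 or more in every sample. Foxa1/2cKO 2 stood apart from the other 3 samples on the first principal component (28.5 against -7.42 to -11.0), and log2 values of all genes differed more within Foxa1/2cKO (SD of the difference 0.405) than within control (0.198). Some log2 fold changes of named genes and gene lists moved by more than 1.5 times or turned direction without Foxa1/2cKO 2. Before length correction, these are also given without it where they are printed. Medians, shares and counts over all genes or length classes were not all given in this way.

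The 250 bases before the RefSeq start of transcription are shown for 3 members that differ in what was measured: *Lyst*, whose groups did not overlap and which the study named; *Nbeal2*, with the highest level; and *Wdfy4*, whose samples separated by replicate number and overlapped between the genotypes. They are RefSeq sequences of GRCm38.p6, read 5′ to 3′ on the strand of the gene. The *Lyst* window is chr13:13590159-13590408 on the plus strand, the *Nbeal2* window is chr9:110654162-110654411 on the minus strand and the *Wdfy4* window is chr14:33185067-33185316 on the minus strand. The GENCODE start of *Lyst* lies 12 bases inside the end of its window, and that of *Nbeal2* adjoins its window. That of *Wdfy4* lies 442 bases upstream of the RefSeq start, so all 250 bases of the *Wdfy4* window lie inside the annotated gene. Capitals mark GC boxes, searched as GGGCGG on both strands.
Lyst: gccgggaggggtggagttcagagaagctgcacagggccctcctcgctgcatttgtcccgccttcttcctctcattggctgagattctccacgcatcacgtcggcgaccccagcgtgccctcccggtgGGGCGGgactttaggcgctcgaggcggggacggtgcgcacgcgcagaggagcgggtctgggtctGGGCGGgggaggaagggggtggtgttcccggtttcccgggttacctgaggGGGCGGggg
Nbeal2: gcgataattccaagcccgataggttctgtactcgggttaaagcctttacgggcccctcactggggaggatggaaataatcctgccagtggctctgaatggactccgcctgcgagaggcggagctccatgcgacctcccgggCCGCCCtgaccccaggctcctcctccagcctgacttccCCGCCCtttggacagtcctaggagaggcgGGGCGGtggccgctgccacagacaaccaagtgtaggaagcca
Wdfy4: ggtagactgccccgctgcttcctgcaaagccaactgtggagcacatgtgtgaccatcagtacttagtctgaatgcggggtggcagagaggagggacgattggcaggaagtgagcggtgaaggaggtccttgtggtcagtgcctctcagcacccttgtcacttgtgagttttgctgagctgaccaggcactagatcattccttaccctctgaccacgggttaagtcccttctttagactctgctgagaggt

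The *Lyst* window held 3 GC boxes, 69.2% G and C and 22 CpG, and the *Nbeal2* window held 3 GC boxes, 62.4% G and C and 14 CpG. The *Wdfy4* window held no GC box, 54.4% G and C and 5 CpG, and the medians of all 32851 promoter windows were 52.4% and 6 CpG. RefSeq windows matched 7 of the 10 members, with a pair of windows for *Vps13d*, and a GC box was found in 6 of these 8 windows, 1 each for *Lyst*, *Lrba*, *Nbeal1*, *Nbeal2*, *Vps13a* and *Vps13d*. Among all windows 32.7% held one. Forkhead letters were searched on both strands in 4 spellings counted together. These were TGTTTAC, the same with a late G as TGTTTGC, the same with an early A as TATTTAC, and the form with both changes, spelled TATTTGC. They were in 0 of the 8 windows and in 11.9% of all windows. An E-box (CACGTG) was in 0 of 8 and in 6.02% of all, and an ETS core (CCGGAAG) was in 0 of 8 and in 6.91% of all. None of the motifs searched contains another, and the absence of these letters concerns these 250 bases only.

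The levels of the 10 members covered a wide range. In the controls the mean FPKM was highest for *Nbeal2* at 54.6 ± 4.78 (SD, n = 2), followed by *Vps13d* at 15.5 ± 0.986, *Lyst* at 14.9 ± 0.948, *Vps13c* at 12.1 ± 1.03, *Vps13b* at 9.21 ± 0.555, *Lrba* at 8.36 ± 0.495 and *Vps13a* at 7.20 ± 0.222. *Wdfy4* at 3.47 ± 2.01, *Nbeal1* at 1.39 ± 0.108 and *Wdfy3* at 0.163 ± 0.0547 were lowest. *Vps13d* and *Lyst* were the only neighbours in this order whose control values overlapped. In Foxa1/2cKO, *Lyst* at 21.9 ± 2.22 lay above *Vps13d* at 18.8 ± 1.19 without overlap, and *Lrba* at 9.59 ± 0.487 and *Vps13a* at 8.83 ± 0.905 were the only neighbours that overlapped. The remaining order was the same in both groups. *Nbeal2* was thus the most abundant member per length in every sample, and 5.92% of the listed genes had a higher mean in the controls.

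**Figure D1:**
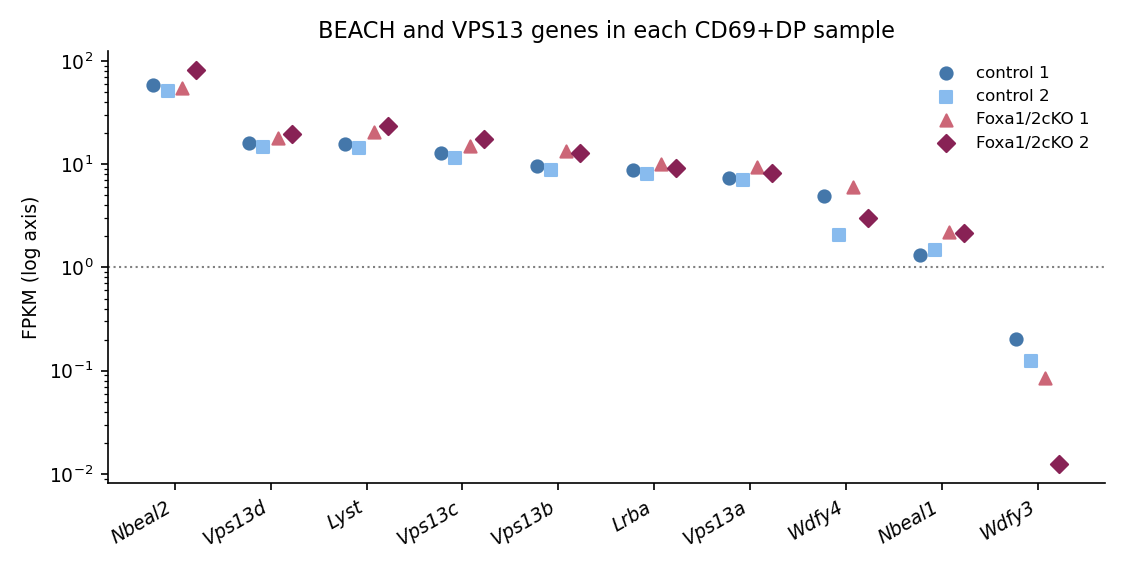
FPKM (log axis) of each BEACH and VPS13 gene in the 2 control and 2 Foxa1/2cKO samples, 1 point per sample, ordered by the control mean, with a dotted line at the FPKM of 1 used as the filter. Both Foxa1/2cKO points lie above both controls for 7 genes, while *Nbeal2* and *Wdfy4* overlap and *Wdfy3* lies far below the line.

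For differences between the groups, limma was run on log2(FPKM + 1). A gene was tested if 2 or more samples reached an FPKM of 1, which kept 10776 genes and 9 of the 10 members and left out *Wdfy3*. The mean was higher in Foxa1/2cKO for 9 of these 9 members and for 51.3% of all genes tested. Both Foxa1/2cKO samples were above both controls for 7 of the 9, and this pattern was found in 18.9% of all genes tested. The median log2 fold change was 0.33 over the 9 members (0.18 to 0.52) and 0.01 over all genes tested. Without Foxa1/2cKO 2 these medians were 0.35 and -0.0088. The pseudocount of 1 makes these values understate the change of low genes such as *Nbeal1*. With Benjamini-Hochberg adjustment in limma, 0 of the 9 members had an adjusted p under 0.05, against 0.00928% of all genes tested, which is 1 gene. An unadjusted p under 0.05 was found for 4 members, all higher in Foxa1/2cKO, and for 2.39% of all genes in that direction. In limma-voom on recovered reads an unadjusted p under 0.05 was found for 5 members and for 2.7% of all genes in that direction, and 0 genes passed after adjustment. Since the members were chosen with this contrast in view, these counts are not evidence about the families, and with 2 samples per group the smallest two-sided p of an exact permutation test is 0.333.

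*Lyst* encodes the lysosomal trafficking regulator, whose loss in beige mice and in Chediak-Higashi syndrome gives giant lysosomes and granules. The gene lies on the plus strand of chromosome 13 (mm10, 13590397 to 13778803) and its longest annotated transcript has 53 exons. Control FPKM was 15.6 and 14.3, and the Foxa1/2cKO samples had 20.3 and 23.5, from 2285 to 3074 reads per sample. The groups did not overlap, and the ratio of the means was 1.47. The log2 fold change was 0.52 with a standard error of 0.11, and it ranged from 0.42 to 0.62 when each sample was left out in turn. Its rank among the members depended on the setting: it was the largest with all 4 samples and a pseudocount of 1, but *Nbeal1* was above it with a pseudocount of 0.1 (0.63 against 0.55) and in limma-voom (0.66 against 0.54), and *Wdfy4* (0.72), *Vps13b* (0.50) and *Nbeal1* (0.43) were above it without Foxa1/2cKO 2 (0.42). The adjusted p from limma was 0.863, as for every tested member other than *Wdfy4*. The study tested counts of the same samples with DESeq2 and fdrtool, and reported *Lyst* as differentially expressed and higher in Foxa1/2cKO (adjusted p under 0.05). The call of *Lyst* thus depended on the test.

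*Lrba* encodes the LPS-responsive beige-like anchor protein (chromosome 3, 86224680 to 86782692, plus strand). In the controls its FPKM was 8.71 and 8.01, against 9.93 and 9.24 in the Foxa1/2cKO samples. The Foxa1/2cKO samples were the higher pair, but the log2 fold change of 0.18 (standard error 0.11) was the smallest among the members tested with all 4 samples. Of its exonic bases 5.68% overlap *Mab21l2* on the opposite strand, and without a stated strand setting reads of both genes cannot be told apart there, although *Mab21l2* itself was at an FPKM of 0.10 or less in every sample.

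*Nbeal1*, a neurobeachin-like gene on chromosome 1 (60180599 to 60338328, plus strand), was the lowest of the members tested. Control FPKM was 1.31 and 1.47, and the Foxa1/2cKO samples had 2.23 and 2.17, from 238, 241, 291 and 292 reads. The groups did not overlap, and both pairs lay close together. The ratio of the means was 1.58, the largest of the tested members, while the fitted difference of log2(FPKM + 1) was 0.42 (standard error 0.16).

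*Nbeal2* (chromosome 9, 110624789 to 110654161, minus strand) encodes a protein that platelets need for alpha granules and that is lost in gray platelet syndrome. In the controls its FPKM was 58.0 and 51.2, against 54.4 and 80.9 in the Foxa1/2cKO samples. Foxa1/2cKO 1 lay between the controls and only Foxa1/2cKO 2 was high. The log2 fold change was 0.28 (standard error 0.21) with all 4 samples and -0.0027 without Foxa1/2cKO 2. The summed FPKM of 6 platelet and erythroid markers was 1.52 and 1.91 for the controls and highest in Foxa1/2cKO 1 at 3.48. It came to 1.67 in Foxa1/2cKO 2. Among the platelet markers *Itga2b* had 41, 31, 24 and 25 reads, *Pf4* had 1, 1, 1 and 0 reads and *Gp1bb* was listed at 0 in all 4 samples, and the value of Foxa1/2cKO 1 was mostly the erythroid gene *Alas2* at 2.62.

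Of the 7 thymocyte markers 5 were highest in Foxa1/2cKO 2 as well, *Cd3e* and *Rag1* being the exceptions, and the summed FPKM of the 7 was 3098 there and 2371 to 2467 in the other 3 samples. *Cd8b1*, a CD8 co-receptor chain, was at 974 FPKM there and at 592, 613 and 668 in control 1, control 2 and Foxa1/2cKO 1. *Themis*, which tunes TCR signals in DP cells, was at 127 there against 77.7, 76.6 and 89.4. The mature SP thymocyte genes *Ccr7*, *Il7r*, *Klf2* and *S1pr1* were lowest in Foxa1/2cKO 2, with *Ccr7* at 39.1 against 82.5, 91.7 and 86.9. The summed FPKM of these 4 genes was 75.9 in Foxa1/2cKO 2 and 166 to 193 in the other 3. Foxa1/2cKO 2 differed from the other samples over many genes, and the shares of all genes highest or lowest in it were not counted here. These marker counts therefore show no particular link to *Nbeal2*. In bulk samples fewer cells of a type and less RNA per cell cannot be told apart, and the part of maturation stage in the *Nbeal2* value was not tested.

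*Wdfy4* (chromosome 14, 32959547 to 33185508, minus strand) is best known in dendritic cells, where it is needed for cross-presentation, and it is also expressed in B cells. Control FPKM was 4.89 and 2.05, and the Foxa1/2cKO samples had 6.00 and 3.04, from 708, 269, 627 and 327 reads. Both replicate 1 samples were above both replicate 2 samples, which was the case for 1 of the 9 tested members and for 11.6% of all genes tested. The 2.39-fold gap between the controls exceeded the 1.30-fold ratio of the group means. Its fitted log2 fold change, 0.33 with a standard error of 0.42 (adjusted p = 0.893, limma), became -0.15 without control 2 and -0.07 without Foxa1/2cKO 1, and 0.80 without control 1 and 0.72 without Foxa1/2cKO 2. With the replicate number as a block the value stayed at 0.33, with a standard error of 0.17. In that limma fit 0 of the 9 members had an adjusted p under 0.05.

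Of 5 B cell markers, *Cd79a*, *Ms4a1*, *Pax5* and *Ebf1* also had both replicate 1 samples above both replicate 2 samples, and *Cd79b* did not. *Cd79a* was at 23.6 and 11.4 FPKM in the controls against 27.2 and 15.8 in the Foxa1/2cKO samples, and *Cd79a*, *Pax5* and *Ebf1* ranked the 4 samples in the same order as *Wdfy4*. The summed FPKM of the 5 markers was 56.7 and 39.4 in the controls against 76.9 and 43.3 in the Foxa1/2cKO samples. The defining markers of cross-presenting dendritic cells were close to 0. *Xcr1* had 1 to 4 recovered reads per sample, and *Clec9a* was at an FPKM of 0.06 or less in every sample. The summed FPKM of all 9 dendritic and myeloid markers was 32.3 and 31.5 in the controls against 34.2 and 21.04 in the Foxa1/2cKO samples. Of these 9 markers 5 (*Zbtb46*, *Itgax*, *Lyz2*, *Csf1r* and *Adgre1*) also had both replicate 1 samples above both replicate 2 samples, and *Itgax*, an integrin of dendritic and myeloid cells, ranked the samples as *Wdfy4* did, at 1.48 and 0.604 FPKM for the controls and 1.61 and 1.16 for Foxa1/2cKO. The part of B cells or of dendritic and myeloid cells in the *Wdfy4* values was not tested.

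**Figure D2:**
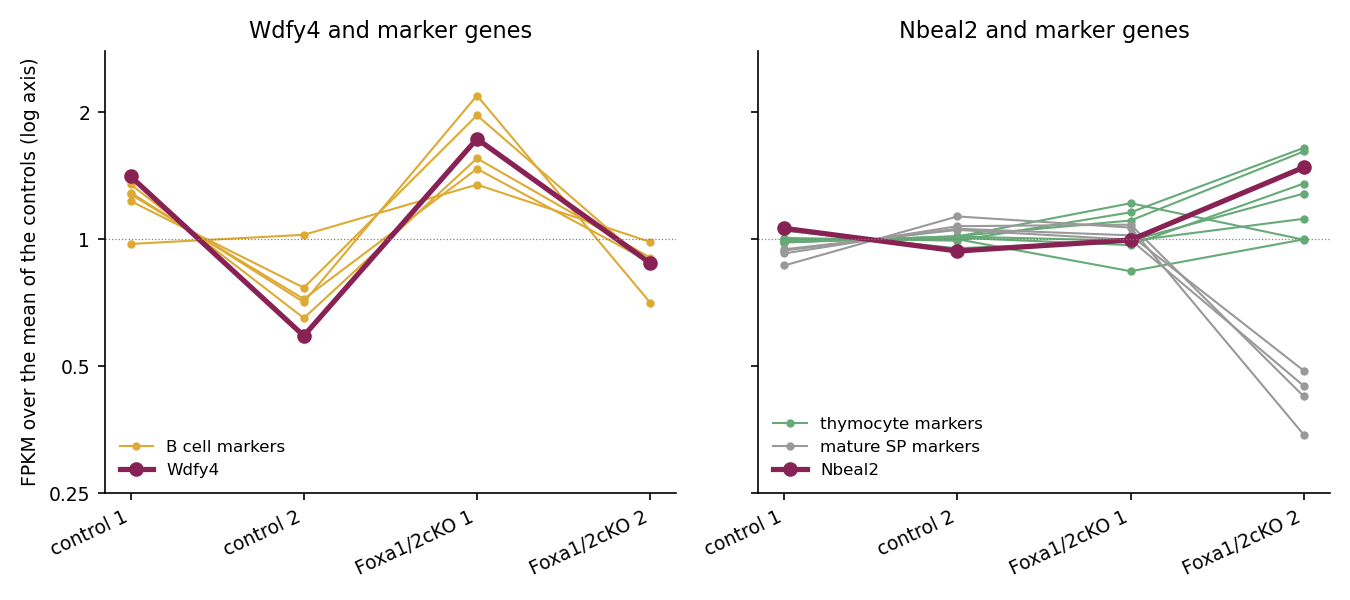
FPKM of each gene in each sample divided by its mean in the 2 controls (log axis), 1 line per gene. On the left *Wdfy4* and 4 of the 5 B cell markers are higher in both replicate 1 samples, and on the right *Nbeal2* and *Cd8b1* are highest in Foxa1/2cKO 2, where the 4 mature SP markers shown are lowest.

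*Wdfy3* encodes ALFY, a scaffold for the selective autophagy of protein aggregates (chromosome 5, 101832956 to 102069921, minus strand). It was the only member under the filter in every sample, at 0.201 and 0.124 FPKM in the controls against 0.0843 and 0.0126 in the Foxa1/2cKO samples. These values rest on 43, 24, 13 and 2 reads. Exact Poisson 95% intervals, which cover counting error only, were 0.146 to 0.271 and 0.0793 to 0.184 FPKM in the controls and 0.0449 to 0.144 and 0.00153 to 0.0456 in Foxa1/2cKO. The Foxa1/2cKO samples were below the controls, against the direction of the other members, but the intervals of control 2 and Foxa1/2cKO 1 overlap. Fitted without the filter, *Wdfy3* had a log2 fold change of -0.15 with a standard error of 0.06 (limma, adjusted p = 0.882). The ratio of the means, Foxa1/2cKO over control, was 0.298, and the pseudocount of 1 makes the log2 value understate it.

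All 4 VPS13 genes were higher in both Foxa1/2cKO samples than in both controls. This was the case for 18.9% of all genes tested and for 42.3% of genes of 8000 bases or more, as these 4 are. The median log2 fold change was 0.33 for the VPS13 genes and 0.33 for the 5 BEACH genes tested. *Vps13b*, lost in Cohen syndrome and acting at the Golgi (chromosome 15, 35371160 to 35931229, plus strand), was at 9.60 and 8.81 FPKM in the controls against 13.4 and 12.8 in the Foxa1/2cKO samples. The gap between the groups was wider than the gap within either group, and the log2 fold change was 0.47 (standard error 0.10) with a range of 0.41 to 0.52 over the samples left out. Of its exonic bases 2.91% overlap annotated genes of the opposite strand, *Cox6c* among them, an abundant transcript at 155 to 174 FPKM that was lowest in Foxa1/2cKO 2.

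*Vps13c* encodes a bridge between the endoplasmic reticulum and late endosomes or lysosomes and is linked to Parkinson disease (chromosome 9, 67840396 to 67995638, plus strand). In the controls its FPKM was 12.9 and 11.4, against 15.01 and 17.5 in the Foxa1/2cKO samples. The groups did not overlap, and Foxa1/2cKO 2 was the highest sample. On the log2 scale the difference was 0.39 with a standard error of 0.12, and leaving out Foxa1/2cKO 2 gave 0.29.

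*Vps13d* acts in the upkeep of mitochondria and is linked to spastic ataxia (chromosome 4, 144972622 to 145195005, minus strand). Control FPKM was 16.2 and 14.8, and the Foxa1/2cKO samples had 18.0 and 19.7, with a log2 fold change of 0.27 (standard error 0.10). *Vps13a*, lost in chorea-acanthocytosis (chromosome 19, 16615366 to 16780933, minus strand), was at 7.36 and 7.05 FPKM in the controls against 9.47 and 8.19 in the Foxa1/2cKO samples. The fitted log2 fold change of *Vps13a* was 0.26 with a standard error of 0.12, and Foxa1/2cKO 1 was its highest sample. The groups overlapped for neither gene, and both genes had their lowest value in control 2.

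**Figure D3:**
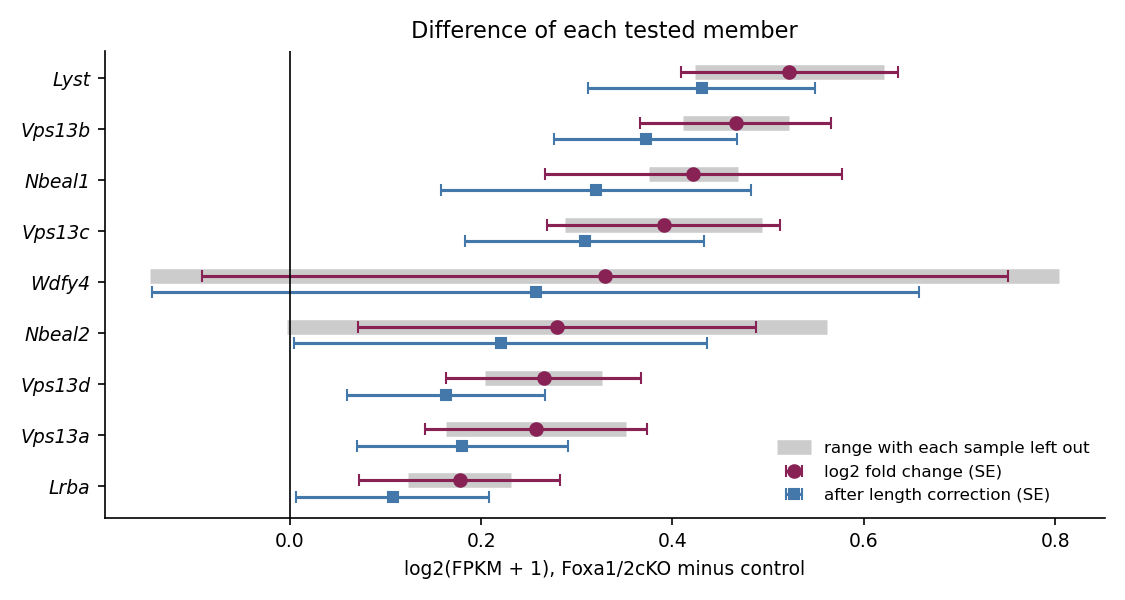
Difference of log2(FPKM + 1), Foxa1/2cKO minus control, for the 9 members tested, with its standard error before (circles) and after (squares) removal of the trend with transcript length, and the range over fits that each left out 1 sample (grey bars). All 9 circles lie above 0, and the grey bars of *Wdfy4* and *Nbeal2* reach below 0.

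The calls depended on the sample left out. Without Foxa1/2cKO 1, when Foxa1/2cKO 2 alone is set against the controls and assumed to vary as they do, 5 of the 9 members had an adjusted p under 0.05 in limma. These were *Lyst* (adjusted p = 0.00503), *Nbeal2* (0.00617), *Vps13c* (0.0156), *Vps13b* (0.0224) and *Vps13d* (0.0384). In that fit 25.4% of all 10619 genes tested were called as well. Without Foxa1/2cKO 2, 0 of the 9 members and 0.224% of 10705 genes were called in limma. An unadjusted p under 0.05 was then found for *Lyst*, *Vps13a*, *Vps13b* and *Vps13c*, with log2 fold changes of 0.42, 0.35, 0.50 and 0.29, and for 7.65% of all genes in that direction. The median over the members ranged from 0.23 to 0.41 over the samples left out.

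All members are long, and the log2 fold change varied with transcript length across all genes. The longest annotated transcripts of the 9 members tested run from 8803 to 15849 bases, the median of tested genes was 3281 bases, and 96.5% of them were shorter than the shortest of these members. Across 10361 genes with an annotated length, the log2 fold change rose with length (Spearman rho of 0.162, across genes, which are not replicates). The median log2 fold change was -0.03 for 651 genes under 1000 bases, -0.01 for 4269 genes of 2000 to 4000 bases and 0.09 for 530 genes of 8000 bases or more. Of these 530 genes 72.1% had a higher mean in Foxa1/2cKO and 42.3% had both Foxa1/2cKO samples above both controls. Between samples of 1 genotype, rho was 0.0952 for control 1 minus control 2 and 0.0162 for Foxa1/2cKO 2 minus Foxa1/2cKO 1, and the 4 pairs of a Foxa1/2cKO sample and a control gave 0.0937 to 0.172.

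The members lay above this trend. At their lengths the fitted trend was 0.06 to 0.10 on the log2 scale, all 9 members were above it, and 8 of the 9 exceeded 0.18, the upper quartile of genes of 8000 bases or more. After each sample was corrected for its own trend, rho was -0.0043 and the log2 fold changes of the members were 0.11 to 0.43 with a median of 0.26, beside 0.02 for all genes with a length. *Lyst* then had 0.43 (standard error 0.12), *Vps13b* 0.37 (0.10), *Nbeal1* 0.32 (0.16) and *Vps13c* 0.31 (0.13), while *Lrba* had 0.11 (0.10). All 9 values were lower than before the correction, by the height of the trend at each length. In limma 2 of the 9 members (*Lyst* and *Vps13b*) had an unadjusted p under 0.05 after the correction, against 4 before it. In the corrected fit 230 of 10361 genes had such a p and were higher in Foxa1/2cKO. Without Foxa1/2cKO 2 the corrected median over all genes with a length was -0.0077.

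**Figure D4:**
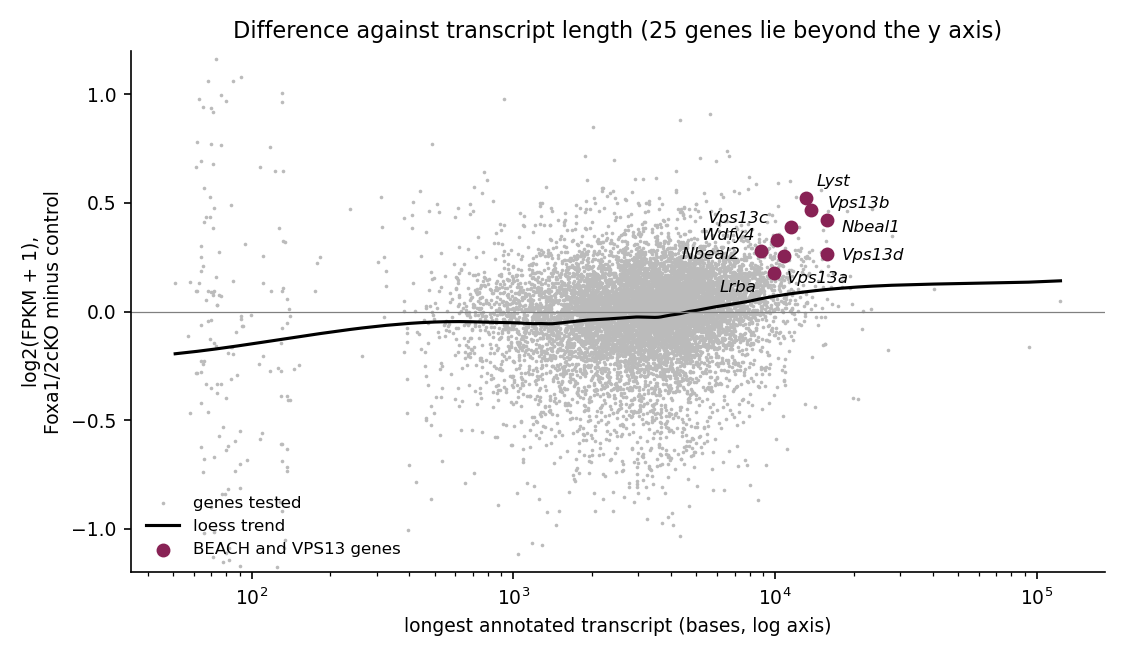
Difference of log2(FPKM + 1), Foxa1/2cKO minus control, against the longest annotated transcript in bases (log axis) for 10361 genes, with a loess trend and the 9 BEACH and VPS13 genes tested. The trend climbs from below 0 for short genes to 0.10 at the longest member, and all 9 members lie above it.

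The controls also differed from each other over the members. Of the 9 members 8 were higher in control 1 than in control 2, *Nbeal1* being the exception, with a median log2 difference of 0.12. The same median was -0.01 over all genes tested and 0.03 over genes of 8000 bases or more. Between the Foxa1/2cKO samples, 4 of the 9 were higher in Foxa1/2cKO 2 and the other 5 were lower there. The mean profile of the members, centred on each gene on the log2 scale, stood at -0.08 for control 1 and -0.27 for control 2, against 0.18 for Foxa1/2cKO 1 and 0.17 for Foxa1/2cKO 2. In this mean control 1 thus lay between control 2 and the Foxa1/2cKO pair. The mean is weighted by the tested members with the most unequal samples. *Wdfy4* had ratios of 2.39 for control 1 to control 2 and 1.97 for Foxa1/2cKO 1 to Foxa1/2cKO 2. *Nbeal2* had 0.673 for Foxa1/2cKO 1 to Foxa1/2cKO 2, the opposite direction, so the near-equal Foxa1/2cKO means do not show that each member was equal there.

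Other genes of both families were described in the same way. Of the 3 other BEACH genes, *Wdr81*, which acts in endosome maturation and autophagy, was at 13.4 and 12.6 FPKM in the controls against 16.1 and 17.0 in the Foxa1/2cKO samples (log2 fold change 0.33, standard error 0.09). *Nsmaf*, an adaptor of the TNF receptor, was at 31.3 and 32.02 in the controls against 36.2 and 37.5 in the Foxa1/2cKO samples (0.21, standard error 0.08). *Nbea*, the neuronal gene that gave the neurobeachins their name, had 5 to 12 reads per sample and was not tested. Both tested genes were higher in both Foxa1/2cKO samples than in both controls. This was the case for 18.9% of all genes tested and for 24.3% of genes of 4000 to 8000 bases, their length class.

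Of the 6 other genes for bridge-like lipid transfer proteins, 5 were tested and 5 had a higher mean in Foxa1/2cKO, with a median log2 fold change of 0.13. *4932438A13Rik*, which encodes BLTP1 and whose transcript of 15883 bases is as long as those of the members, was at 33.0 and 29.1 FPKM in the controls against 33.3 and 38.9 in the Foxa1/2cKO samples, a fitted difference of 0.21 on the log2 scale (standard error 0.12), or 0.10 without Foxa1/2cKO 2. The autophagy genes *Atg2a* and *Atg2b* had 0.13 and 0.07 (0.06 and 0.04 without that sample), *2610507B11Rik* (BLTP2) had 0.07 and *Uhrf1bp1l* (BLTP3B) had 0.19, which turned to -0.02 without that sample, and the groups overlapped for *Atg2b* and *Uhrf1bp1l*. *Uhrf1bp1* (BLTP3A) was under 1 FPKM in all 4 samples. Without Foxa1/2cKO 2, 4 of the 5 had a higher mean and the median was 0.06. Groups that did not overlap were found for 3 of the 5, all higher in Foxa1/2cKO. This pattern was found in 18.9% of all genes tested, in 24.3% of genes of 4000 to 8000 bases and in 42.3% of longer genes. In limma 0 of the 5 had an unadjusted p under 0.05, beside 2.39% of all genes tested in that direction.

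Genes of the compartments in which the members act were counted in 4 lists. Of 24 genes for lysosome-related organelles and granule release 23 were tested, 13 with a higher and 10 with a lower mean in Foxa1/2cKO, and the median log2 fold change was 0.01, as over all genes tested. Without Foxa1/2cKO 2 these counts were 9 and 14, with a median of -0.04. The smallest p belonged to the AP-3 adaptor subunits *Ap3m1* (0.22, standard error 0.10) and *Ap3s1* (0.28, standard error 0.14, and 0.10 without Foxa1/2cKO 2). Of 15 membrane contact site genes tested 10 had a higher and 5 a lower mean with a median of 0.05, led by the tether *Esyt2* (0.31, standard error 0.12, and 0.16 without Foxa1/2cKO 2) and the lipid exchanger *Osbpl8* (0.19, standard error 0.08). *Esyt2* was at 51.0 and 50.1 FPKM in the controls against 56.6 and 69.6 in the Foxa1/2cKO samples, and was thus highest in Foxa1/2cKO 2.

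Of 12 selective autophagy genes tested 11 had a higher and 1 a lower mean in Foxa1/2cKO, with a median log2 fold change of 0.09, but without Foxa1/2cKO 2 only 5 had a higher and 7 a lower mean, with a median of -0.01. The receptors *Tax1bp1* (0.18, standard error 0.08) and *Sqstm1* (0.29, standard error 0.17) had the smallest p, and *Sqstm1* was 0.06 without Foxa1/2cKO 2. Of 13 recycling endosome genes 8 had a higher and 5 a lower mean, with a median of 0.06, and without Foxa1/2cKO 2 these counts were 5 and 8, with a median of -0.06. *Arfgef1* (0.15, standard error 0.08) and *Ehd4* (-0.23, standard error 0.15, and -0.06 without Foxa1/2cKO 2) had the smallest p. *Ctla4*, whose protein LRBA protects, was in this list at 3.56 and 4.19 FPKM in the controls against 3.83 and 2.05 in the Foxa1/2cKO samples, chosen here after its values were seen, and the fitted log2 difference was -0.34 with all 4 samples (standard error 0.26) but -0.01 when Foxa1/2cKO 2 was left out. In limma 0 genes of these 6 lists and 1 of all genes tested had an adjusted p under 0.05. An unadjusted p under 0.05 in limma was found for 1 gene of the lists (*Wdr81*), beside 2.39% of all genes tested in that direction. After adjustment limma-voom called 0 of all genes tested.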

How the data were processed

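RNA from 2 control and 2 Foxa1/2cKO samples of sorted CD69+DP thymocytes was sequenced on a NextSeq instrument. The authors aligned reads to mm10 with RefSeq genes, counted them with HTSeq in union mode and tested them with DESeq2 and fdrtool. The deposited values are FPKM, and the tool with which the authors made them is not given in the sources used here. From their steps whole reads were recovered for 100% of the 16069 genes above 0, as the smallest whole numbers in proportion. Multiples of these numbers were examined only for the 11339 genes with more than 50 reads summed over the samples. The reads of lower genes may therefore be too low by a common factor. The totals by which the FPKM were scaled were above the recovered reads in control 1, control 2 and Foxa1/2cKO 1. In Foxa1/2cKO 2 the total was below them (11093927 against 11261727). With scaling to all recovered reads the median log2 fold change of the members was 0.3046, against 0.3293 with the deposited values.

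limma 3.58.1 in R 4.3.3 was fitted to log2(FPKM + 1) with group alone and a mean-variance trend for genes that reached an FPKM of 1 in 2 or more samples. P-values were adjusted by Benjamini-Hochberg (threshold 0.05). Transcript lengths and coordinates came from GENCODE vM21 (GRCm38), matched by symbol, and a loess trend (span 0.3) on log2 length was removed per sample. The pipeline was tested on simulated data. The members and gene lists were chosen with earlier results of these data known. All members, all other BEACH and bridge-like genes, the 2 genes with the smallest p of each other list and the 5 genes with the nearest profile are named. Alternatives were another pseudocount, other filters, upper-quartile scaling, a replicate block, length correction, limma-voom on recovered reads and each sample left out. The values of 3 marker genes are not reported here, so counts and sums over cell type markers do not cover the full lists. Exon usage was not analysed here.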

Additional observations from a re-analysis of the deposited data

How the results depend on the processing

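All 9 tested members kept a positive log2 fold change under every alternative except *Wdfy4* without control 2 (-0.1457) and without Foxa1/2cKO 1 (-0.0662), and *Nbeal2* without Foxa1/2cKO 2 (-0.0027), and in the length-corrected fits *Wdfy4* without Foxa1/2cKO 1 (-0.12) and *Nbeal2* without Foxa1/2cKO 2 (-0.08). The 1 gene called among all genes became 0 with a pseudocount of 0.1, without the filter on low values, with FPKM of at least 1 in all samples, with limma-voom on recovered reads and with scaling to all recovered reads. This scaling, the correction by recovered gene length and the corrections without 1 Foxa1/2cKO sample were chosen after seeing the data. The median over the members was 0.4156 with a pseudocount of 0.1, 0.4027 with limma-voom and 0.2571 after length correction, with or without the replicate block. Length-corrected, it was 0.3229 without Foxa1/2cKO 1 and 0.255 without Foxa1/2cKO 2. The rho with length was 0.1262 without the filter. Leaving out each sample in turn gave 0 to 2695 genes called, 0 to 5 members called, a median of 0.23 to 0.4102, a rho of 0.1144 to 0.178 and 7 to 9 members without overlap. With 1 sample in a group, groups without overlap in either direction were more common among all genes. They were found for 9155 of 10619 genes without Foxa1/2cKO 1 and 8260 of 10705 without Foxa1/2cKO 2. Without control 1 they were found for 6193 of 10612, without control 2 for 5502 of 10650, and with all 4 samples for 3954 of 10776. The 7 to 9 members are therefore not a sign of robustness. Over the fits that left out 1 sample *Nbeal2* ranged from -0.0027 to 0.5611 and *Wdfy4* from -0.1457 to 0.8044. The cause of these shifts was not tested, except that fewer samples enter the fits that leave one out.

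Samples of the same replicate number did not deviate together (correlation of -0.0587). With the number as a block 1 gene and 0 members were called, the members' median stayed at 0.33, and the genes with an unadjusted p under 0.05 went from 490 to 378. Depth limits *Wdfy3* and *Nbea*, at 43 reads or fewer in every sample, and 2 samples per group limit every difference given here.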

Other observations

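The 5 tested genes outside both families whose centred log2(FPKM + 1) over the 4 samples lay nearest to the mean profile of the tested members were *Josd2*, *1700019G17Rik*, *Toporsos*, *Pygb* and *Ap1s2*, at root mean square distances of 0.0091 to 0.0294. *Josd2*, which encodes a deubiquitinase, was at 11.2 and 9.53 FPKM in the controls against 13.3 and 13.3 in the Foxa1/2cKO samples. *Pygb*, a glycogen phosphorylase, was at 20.2 and 18.2 in the controls against 23.7 and 24.5 in the Foxa1/2cKO samples. *Ap1s2*, a subunit of the AP-1 adaptor of the trans-Golgi network and endosomes, was at 4.58 and 4.10 in the controls against 5.57 and 5.74 in the Foxa1/2cKO samples. The transcripts of these 3 genes, at 1557, 3909 and 3199 bases, were shorter than that of every member. The profile rests on 4 points and is weighted by the unequal samples of *Wdfy4* and *Nbeal2*, and the genes were picked for their likeness.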
